A study of Mus musculus with 4 samples.

Results

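The distal regions described here were open in all 3 adult epithelial lineages of the mouse mammary gland and far less open in fetal epithelium. They are 175 of 145453 distal regions, or 0.120%, each 1000 bases wide. They were selected on measured values: reads of the deposited nuclei were summed into 5 groups of clusters, and a region was kept where the lowest of the 3 adult groups reached at least 10 CPM and at least 3 times each of the 2 fetal groups, with 0.5 CPM added to both sides of the ratio. CPM stands here for reads per 1000000 distal reads of the group. The adult groups were basal nuclei (clusters 1 and 8), luminal progenitors (3 and 7) and mature luminal nuclei (2 and 11), and the fetal groups were luminal-like (5 and 9) and basal-like nuclei (4 and 12). Because this rule used adult against fetal values, those values are given for the members as a description and without a test.

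The nuclei came from wild-type CD1 mice, an outbred strain, and were profiled by single-nucleus ATAC-seq, in which the transposase Tn5 inserts sequencing adapters into open chromatin and barcodes tell the nuclei apart. The fetal group was taken at embryonic day 18 and the adult group at 8 weeks, each with 2 biological replicates. In all 4 libraries the cells had been sorted as EpCAM-positive and lineage-negative, a gate for epithelium. The labels do not say how many animals went into a replicate, nor give the sex or the stage of the oestrous cycle.

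The mammary gland is a bilayered epithelium. Basal cells contract and push milk out, luminal progenitors include the precursors of milk-secreting cells, and mature luminal cells sense oestrogen and progesterone. Fetal mammary epithelium before birth holds cells that have not yet fully separated into these lineages. Distal accessible regions are mostly candidate enhancers, and most of them differ between cell types. The regions described here were picked for a difference by stage and not by lineage.

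The authors kept 7846 nuclei, from 882 to 2804 per library, with 6028168 to 19304830 reads. No barcode was shared between libraries. The 5 groups held 7290 nuclei, and 54 of them came from a library of the other stage. The 3 adult groups were compared with each other on markers. Among them all 8 basal markers were most accessible in basal, all 7 luminal progenitor markers in progenitor and all 8 mature luminal markers in mature luminal nuclei. The fetal groups were left out of this ranking. Aldh1a3, Csn3 and Tbx3 were higher in fetal luminal-like nuclei than in the adult group that they mark. Of the 8 basal markers, 8 were higher in the fetal basal-like than in the fetal luminal-like group, and 0 of 6 general luminal markers were. The groups differed in depth, from 2318194 distal reads in the adult basal to 5867946 in the adult mature luminal group. One read in adult basal replicate 1 was worth 1.44 CPM and 1 read in fetal basal-like replicate 1 was worth 1.504 CPM, so low values in those columns move in steps of that size.

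Sequence was at hand for 2 members, those that hold the whole 250 bases before a listed transcription start. These are the members at Ptpre, which encodes a receptor-type tyrosine phosphatase, and at Syne3, which encodes nesprin-3, a protein of the outer nuclear membrane. They are shown because AP-1, the Fos and Jun family of factors, is among the motifs that the deposited scores cover, and 1 of the 2 sequences holds its site. Both are given 5′ to 3′ on the strand of the gene, from RefSeq on GRCm38.p6, with matches to the AP-1 motif TGANTCA in capitals.
Ptpre, chr7:135605578-135605827, plus strand: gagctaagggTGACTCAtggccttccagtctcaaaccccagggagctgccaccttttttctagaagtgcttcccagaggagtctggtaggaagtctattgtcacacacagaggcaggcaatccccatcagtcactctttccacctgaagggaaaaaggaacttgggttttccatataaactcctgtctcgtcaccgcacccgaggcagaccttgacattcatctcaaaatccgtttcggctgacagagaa
Syne3, chr12:104998678-104998927, minus strand: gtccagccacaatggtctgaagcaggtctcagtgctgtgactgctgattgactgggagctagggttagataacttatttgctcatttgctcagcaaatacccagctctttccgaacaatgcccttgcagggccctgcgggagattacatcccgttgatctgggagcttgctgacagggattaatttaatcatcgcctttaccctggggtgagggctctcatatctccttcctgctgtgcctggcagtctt
The Ptpre stretch held the AP-1 letters once, at position 11 from its 5′ end, and the Syne3 stretch held none. In all 21 motifs were searched: AP-1, CRE, 2 SOX forms, FOX, RUNX, TEAD, ETS, GRHL, CEBP, GATA, an E-box, KLF, TFAP2, STAT, NF-kB, CTCF, single and palindromic NFI sites, and single and palindromic nuclear receptor sites. KLF letters (CCNCNCCC) stood in both stretches, at position 194 in Ptpre and at position 206 in Syne3, and in 45.9% of all listed stretches. The Syne3 stretch also held GATA letters (AGATAA) at position 67, found in 9.99% of all stretches, and 1 SOX form (AACAAT) at position 114, found in 9.42%. Searched on both strands, TGANTCA was found in 6.75% of all 32851 listed stretches of this length and in 11.54% of the 2868 that lie inside a distal region. A match of letters is a description and not a bound site.

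The member over the Ptpre start (chr7:135604972-135605971) read 38.8 and 34.7 CPM in the adult basal group (replicates 1 and 2), 34.1 and 23.9 CPM in luminal progenitors and 41.0 and 42.9 CPM in mature luminal nuclei. In fetal nuclei it read 8.12 and 8.05 CPM in the luminal-like group and 3.01 and 9.36 CPM in the basal-like group. All 6 adult values lay above all 4 fetal values. The member over the Syne3 start (chr12:104998598-104999597) read 30.2 and 48.9 CPM in basal, 63.1 and 63.9 in progenitor and 78.7 and 71.6 in mature luminal nuclei, against 20.0 and 8.57 CPM in fetal luminal-like and 9.02 and 8.43 CPM in fetal basal-like nuclei. The groups did not overlap there either, although basal nuclei were the lowest of the 3 adult lineages.

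Across the 175 members the lowest adult group had a median of 17.0 CPM, from 10.1 to 93.9, and the higher fetal group a median of 4.27 CPM, from 0.546 to 28.8. By group the member medians were 21.1 CPM in basal, 23.9 in progenitor, 27.1 in mature luminal, 4.01 in fetal luminal-like and 2.85 in fetal basal-like nuclei. The medians of all distal regions were 2.59, 2.71, 3.07, 3.46 and 3.56 CPM, in the same order. The members stood far above the typical distal region in adult nuclei and near it in fetal nuclei. The floor of 10 CPM set the first of these, and the limit of 3 times held the fetal values down. The ratio of the lowest adult to the higher fetal group had a median of 3.64 and reached 15.5. In 167 of the 175 members all 6 adult library values exceeded all 4 fetal library values, which was the case for 1.79% of all distal regions and for 12.2% of the 9689 distal regions with all 3 adult groups at 10 CPM or more. In 6 of the other 8, among them the members nearest Map3k20 and Galk2, adult basal replicate 1 was low, at 0 to 5.75 CPM. At the remaining 2, nearest Zfp637 and Has2, fetal basal-like replicate 1 was high, at 9.02 CPM. Every member had at least 1 read in fetal luminal-like nuclei, and 6 had none in fetal basal-like nuclei.

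**Figure D1:**
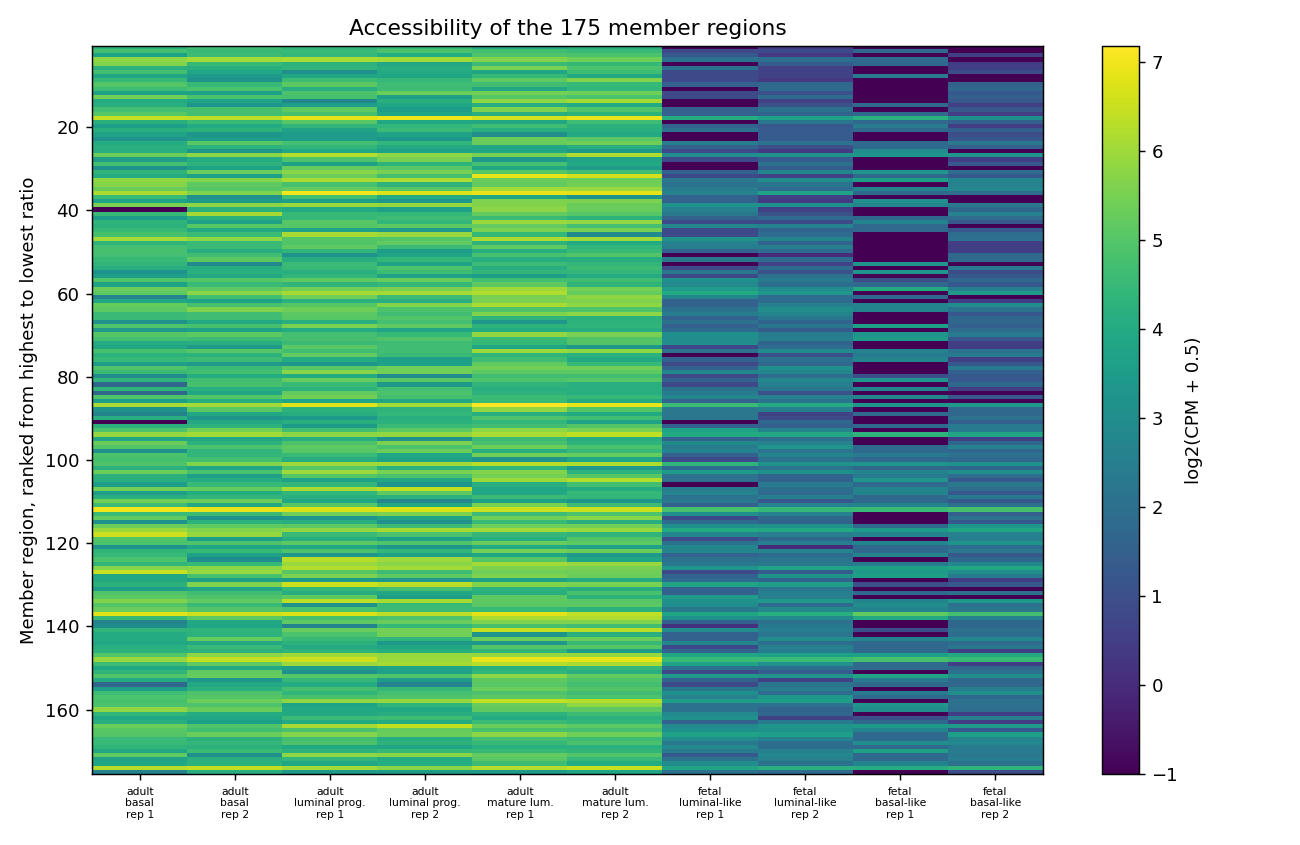
Accessibility of the 175 members, as log2(CPM + 0.5), in each group and replicate (columns), with members ranked from the highest to the lowest ratio (rows). The 6 adult columns are brighter than the 4 fetal columns in nearly every row, and the darkest fetal cells are members with no read in that library.

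The member reads were spread over many nuclei. A member was read in a median of 154 adult nuclei (71 to 588 of 4881) and in a median of 15 fetal nuclei (2 to 102 of 2409), and no nucleus gave more than 10 reads to a member. At least 1 member read was found in 93.7% of basal, 96.7% of progenitor and 98.7% of mature luminal nuclei, against 62.9% of fetal luminal-like and 58.2% of fetal basal-like nuclei. Fetal nuclei were the deeper ones, with medians of 6880.5 and 6764 reads against 4283, 4621 and 5436.5 reads in the adult groups. With every nucleus thinned to 2000 reads, a depth that all nuclei reached, the expected shares were 89.5%, 93.8% and 96.8% in adult and 41.0% and 35.1% in fetal nuclei.

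The 6 members whose lowest adult group was highest were named after the nearest coding gene, which need not be the gene that they act on. The first by this measure (chr17:35854041-35855040) lies in Mdc1, a mediator of the DNA damage checkpoint. It read 109 and 93.4 CPM in basal, 107 and 81.4 CPM in progenitor and 113 and 83.7 CPM in mature luminal nuclei. Its fetal values were 13.7 and 17.7 CPM in luminal-like and 36.1 and 26.7 CPM in basal-like nuclei, so the fetal basal-like group was the higher of the 2.

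The member 17816 bases from Tacc1 (chr8:25274240-25275239), which encodes a coiled-coil protein of the centrosome, read 127 and 116 CPM in basal, 106 and 105 CPM in progenitor and 91.3 and 90.2 CPM in mature luminal nuclei. All 4 of its fetal values lay between 21.3 and 27.5 CPM. The member in Abhd2 (chr7:79285031-79286030), a lipid hydrolase gene, read 86.3 and 82.3, 114 and 124, and 97.8 and 123 CPM in the 3 adult lineages. Its fetal values were 16.2 and 12.5 CPM in luminal-like and 18.05 and 7.96 CPM in basal-like nuclei.

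The remaining members of these 6 lie 141132 bases from Klf14, in Vps37b and 91407 bases from Sgk1. Klf14 encodes a Krüppel-like factor, Vps37b a subunit of the ESCRT-I sorting complex, and Sgk1 a kinase induced by serum and glucocorticoids. The member nearest Klf14 (chr6:31100122-31101121) read 60.4 and 84.8 CPM in basal, 94.2 and 61.4 CPM in progenitor and 123 and 117 CPM in mature luminal nuclei, against 22.5 to 27.1 CPM in the 4 fetal columns. The Vps37b member (chr5:124006569-124007568) read 144 and 117 CPM in mature luminal nuclei, its highest lineage, and 9.02 and 9.83 CPM in fetal basal-like nuclei, its lowest group. The member nearest Sgk1 (chr10:21789778-21790777) read between 52.7 and 89.3 CPM in the 6 adult columns and between 13.1 and 20.1 CPM in the 4 fetal columns. It is also among the 3 members just inside the limit on the ratio, at 3.01.

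The 6 members with the highest ratio were nearly closed in fetal nuclei, and their adult levels varied. The one in Mosmo (chr7:120721064-120722063), a regulator of Hedgehog signalling, read 18.7 and 24.8 CPM in basal, 19.5 and 21.5 CPM in progenitor and 14.6 and 16.6 CPM in mature luminal nuclei. In fetal nuclei it had no reads in 3 of the 4 columns and 0.779 CPM in luminal-like replicate 2. It was read in 109 adult and 2 fetal nuclei. The member in Zbtb7c (chr18:76078717-76079716), a zinc-finger protein gene, read between 22.5 and 27.8 CPM in the 6 adult columns and between 0 and 3.01 CPM in the 4 fetal ones, with a ratio of 13.7.

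The member in Smg6 (chr11:74990469-74991468), whose protein cuts RNA in nonsense-mediated decay, read 12.9 and 24.1 CPM in basal, 21.5 and 16.1 CPM in progenitor and 30.0 and 28.7 CPM in mature luminal nuclei, with a ratio of 12.1. The member in Kifc3 (chr8:95162165-95163164), a minus-end kinesin gene, was the most accessible of these 6, at 54.6 and 66.2, 70.7 and 65.8, and 48.7 and 40.5 CPM, against at most 3.75 CPM in any fetal column. The members nearest Ltbp2 (chr12:84889777-84890776), a matrix protein of the latent TGF-beta binding family, and in Zfp469 (chr8:122144394-122145393) had ratios of 8.82 and 7.84. Every fetal value of these 4 members was under 4 CPM.

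**Figure D2:**
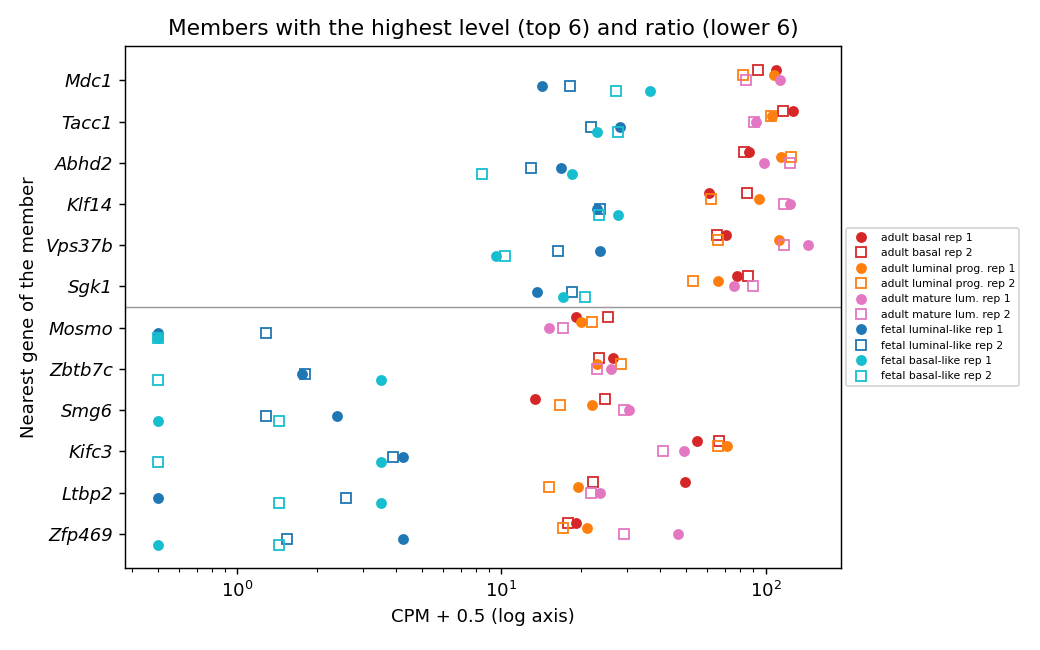
CPM + 0.5 (log axis) in each group and replicate for the 6 members with the highest value in their lowest adult group (upper rows) and the 6 of highest ratio (lower rows), named by nearest gene. In all 12 rows the 6 adult points lie to the right of the 4 fetal points, and the lower rows reach the left edge because some fetal libraries had no read.

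The members at the limits of the rule differ little from regions left out. Just inside the ratio of 3 were the members nearest Cemip (3.00), Sgk1 (3.01) and Arhgef10 (3.01), and just outside it regions nearest Anxa2 (3.00), Smim20 (2.99) and Ralgds (2.98). Members nearest Btbd19, Ntn4 and Ehf were just above 10 CPM, each at 10.1 CPM, and regions nearest Ndel1, Prdm10 and Gata3 were just below it, each at 9.92 CPM. The number of members therefore depends on the limits, and was 294 at 5 CPM, 68 at 20 CPM, 500 at 2 times and 35 at 5 times.

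The same measure was then read in the replicate to which the rule had not been applied. With the rule applied to the replicate 1 libraries of both stages, 244 regions were chosen, and 58 of them also passed the rule in the replicate 2 libraries. Among all 9436 distal regions with the 3 adult groups at 10 CPM or more in replicate 1, 1.28% passed it there. In 214 of the 244 the lowest adult group still exceeded the higher fetal group in replicate 2, against 24.0% of those 9436 regions. The median ratio was 4.01 in the libraries used for the choice and 2.06 in the others. In the other direction 169 regions were chosen in replicate 2, of which 58 passed the rule in replicate 1, against 1.61% of 9444 regions. In 150 of the 169 the lowest adult group was the higher in replicate 1, against 21.5% of those regions, and the median ratio went from 3.61 to 2.38. In these regions the direction was mostly kept in the other replicate, while the ratio was smaller there and most fell short of the limits. The deposited clusters and the region list span the libraries of both replicates. The other replicate is therefore not independent of how groups and regions were set. Of the regions chosen in a single replicate, 90 of 244 and 118 of 169 were among the 175 members. Reads of both replicates chose those 175, so these values are a description and lend the members no support.

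Nuclei and reads that the rule left out were examined next. Cluster 6, which the rule did not use, held nuclei of both stages, 23 and 33 in the fetal and 82 and 75 in the adult replicates. It was stromal-like: all 10 stromal markers were more accessible there than in any of the 5 groups, and their summed level was 906 to 1172 CPM of all reads, against 159 to 286 in the 5 groups. Of its distal reads, 0.229% and 0.227% lay in members in fetal replicates 1 and 2 (101 of 44193 and 237 of 104311 reads), and 0.480% and 0.454% in adult replicates 1 and 2 (682 of 141947 and 878 of 193536 reads). The exact 95% binomial intervals were 0.186 to 0.278% and 0.199 to 0.258% in fetal and 0.445 to 0.518% and 0.424 to 0.485% in adult libraries. They cover counting error only, since reads of 1 nucleus are not independent. The means were 0.228% ± 0.000946 in fetal and 0.467% ± 0.0189 in adult stromal-like nuclei (SD, n = 2 each), a ratio of 2.05. The stages did not overlap, but with 2 libraries against 2 an exact two-sided permutation test cannot go below p = 0.333.

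Regions chosen in the same way for other patterns are given beside this. In cluster 6 the adult share over the fetal share was 1.02 for the 1120 distal regions equally open in all 5 groups, 0.355 for 657 regions open in fetal groups only, 1.21 for 2457 adult basal regions, 1.21 for 1084 adult progenitor regions and 1.46 for 6742 adult mature luminal regions. Markers of other cell types in cluster 6 were measured as well. The summed level of 6 luminal markers was 41.4 and 39.9 CPM in fetal and 47.3 and 58.8 CPM in adult replicates, against 393 to 520 CPM in the 3 luminal groups. The summed level of 8 basal markers was 138 and 180 CPM in fetal and 135 and 149 CPM in adult replicates, against 756 CPM in adult basal nuclei. Summed endothelial markers ranged from 180 to 302 CPM in fetal and from 209 to 244 CPM in adult replicates, against 127 to 200 CPM in the 5 groups. Summed immune markers ranged from 69.1 to 71.3 CPM and from 58.8 to 140 CPM, against 62.7 to 102 CPM in the 5 groups. Summed progenitor markers were 143 to 193 CPM in fetal and 199 to 225 CPM in adult replicates, and summed mature luminal markers 490 to 518 CPM and 334 to 434 CPM. In the 5 groups these sums were 174 to 640 CPM and 376 to 1079 CPM. Krt5 had no reads in any of the 4 samples, Krt14, Krt18, Cldn4, Csn3 and Areg had none in 3 of the 4, and Epcam had none in fetal replicate 1. Among the immune markers, Cd52 and Lyz2 had no reads in the fetal replicates and in 1 adult replicate each. Ikzf1 had none in fetal replicate 1 and Cd3e none in adult replicate 2, while Ptprc and Spi1 had reads in all 4 samples. What part such reads have in the member share was not tested.

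Single members in cluster 6 were thinly read. edgeR's quasi-likelihood test of adult against fetal cluster 6 nuclei could be made for 31 members, whose reads averaged 5 or more across the libraries, and for 4676 distal regions in all. Neither any member nor any other region passed at an adjusted p under 0.05 (0.00% of regions called), with edgeR or with DESeq2. At an unadjusted p under 0.05 there were 9 members and 394 regions. The difference was above 0 in 28 of the 31 members and in 62.6% of all regions. Its median was 1.44 on the log2 scale in the 31 and 0.31 in all regions. Without fetal replicate 2 these medians were 5.65 over 41 members and 0.71, and with a mean of at least 1 read they were 2.13 over 117 members and 0.76. A member passed the limit on reads mostly through its adult values, so these counts lean towards adult and lend no support. The member nearest Tacc1 had 4 and 12 reads in the fetal and 41 and 47 in the adult replicates, the one nearest Klf14 had none in the fetal and 10 and 24 in the adult replicates, and the one nearest Sgk1 had 2 and 8 against 28 and 31. The Mdc1 member had no reads in 3 of the 4 cluster 6 samples and 5 in adult replicate 2.

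Barcodes that the authors had not kept as nuclei showed the stages apart too. Members took 0.101% and 0.100% of the distal reads of such barcodes in the fetal replicates and 0.561% and 0.493% in the adult replicates, a ratio of 5.24 between the means. The ratio was 0.987 for equally open regions, 0.167 for regions open in fetal groups only, 2.46 for adult basal, 2.60 for adult progenitor and 3.91 for adult mature luminal regions. These barcodes come from the same libraries as the kept nuclei, so they are no further samples of the tissue. Adult clusters 10 and 14, left out of the rule, had shares of 0.625% and 0.590%, and of 0.571% and 0.556%. Both carried markers of more than 1 adult lineage, with summed levels of 142 CPM (basal), 412 CPM (progenitor) and 740 CPM (mature luminal) in cluster 10 and of 355, 224 and 788 CPM in cluster 14. Their nuclei were also the deepest, with medians of 9090 and 8031 reads, and the part of these features in the shares was not tested. Cluster 13, mostly fetal, had 0.151% and 0.200% in the fetal replicates and, from 6 and 2 nuclei, 0.534% and 0.206% in the adult ones.

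**Figure D3:**
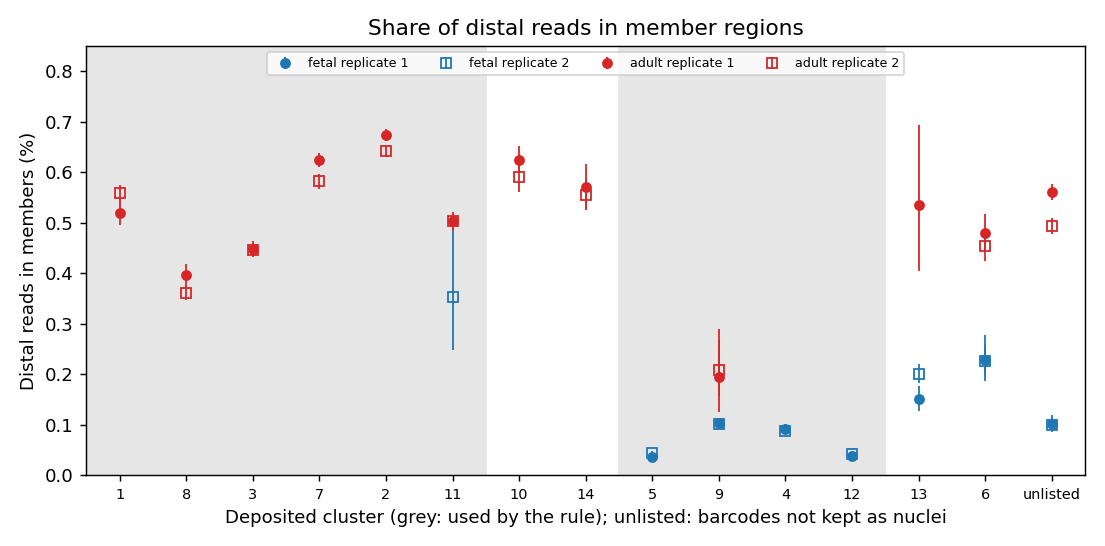
Percent of distal reads that lay in members, by deposited cluster and library, with exact 95% binomial intervals, where a cluster had at least 10000 distal reads in the library. Adult points lie above fetal points in cluster 6 and in unlisted barcodes, neither of which was used by the rule, and clusters 5 and 12 are the lowest. Cluster 9 also has points of adult replicates 1 and 2, at 0.195% and 0.208%, and cluster 11 a point of fetal replicate 2, at 0.353%.

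Within the clusters whose reads chose the members, the share was uneven. The fetal clusters 5 and 12 had 0.0356% and 0.0439%, and 0.0394% and 0.0422%, lower than the other fetal pair, clusters 9 and 4, at 0.102% to 0.105% and at 0.0877% to 0.0927%. These are values of fetal libraries. The 9 and 10 nuclei of cluster 9 in adult replicates 1 and 2 had 0.195% and 0.208%. In fetal replicate 2 the 5 nuclei of adult cluster 11 had 0.353%. The share thus differed by cluster as well as by the stage of the library. The deposited Fos score, a chromVAR deviation for the AP-1 motif that is relative and has no unit, averaged -6.04 in cluster 5 and -4.51 in cluster 12, against -1.06 in cluster 9 and -0.03 in cluster 4. The Nfix score averaged 2.67, 1.49, 1.74 and 0.50 in the same order. Among the adult clusters, mature luminal clusters 2 and 11 had Fos scores of 2.72 and 3.01 and basal and progenitor clusters lay between -0.81 and 0.43, while all of them had member shares of 0.360% to 0.674%. The low Fos scores and the low member shares thus fell together in fetal clusters 5 and 12. Between fetal clusters 9 and 4 they did not, as cluster 4 had the higher score and the lower share. Cluster 4 also scored above adult clusters 3, 7 and 8 (-0.81, -0.41 and -0.13) at a far lower share. The adult order of the scores was not that of the shares. Adult clusters also differed in the promoter share of reads, at 25.6%, 27.1% and 24.5% in clusters 1, 7 and 2. It was 17.9%, 21.0% and 19.4% in clusters 8, 3 and 11, which had the lower member share of each lineage. In fetal clusters 5 and 12 it was 24.7% and 22.5%, and in clusters 9 and 4 it was 23.0% and 19.6%. There the lower member share went with the higher promoter share. Scores and shares come from the same reads, and no relation was tested.

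The members were not equally open in the 3 adult lineages. The highest adult group was mature luminal in 91 members (52.0%), progenitor in 54 (30.9%) and basal in 30 (17.1%). In all 9689 distal regions with the 3 adult groups at 10 CPM or more the shares were 29.7%, 41.2% and 29.0%. The highest lineage exceeded the lowest by a median of 1.67 times in members and 1.75 times in those regions. The lineages lay within 1.5 times of each other in 62 members (35.4%, against 33.4% of those regions) and at least 3 times apart in 21 (12%, against 13.3%). The lineages were compared with edgeR's quasi-likelihood test over the 2 adult replicates, with the library as a block, in 54351 distal regions. How the deposited clusters were made is not given in the sources used here. If they were drawn from the same reads, a call sorts the regions and is not independent evidence of a difference. The rule also read these adult values, since it set a floor on the lowest lineage, so the differences are given as a description of the members.

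Between basal and progenitor nuclei 28 of 175 members (16.0%) were called, 8 higher in basal and 20 higher in progenitor nuclei, against 25.4% of all regions tested and 19.6% of those with the 3 adult groups at 10 CPM or more. Without the TMM factor the split was 12 to 19, and 6464 to 7796 in all regions called. With a mean of at least 30 reads it was 14 to 15, and 2387 to 2984 in all regions called. In the main setting the called regions of like adult level split 603 to 1296. Between basal and mature luminal nuclei 44 members (25.1%) were called, 6 higher in basal and 38 higher in mature luminal nuclei, against 49.8% and 29.8%. That split was 12 to 30 with a mean of at least 30 reads and 3 to 49 with a mean of at least 1 read. All regions called then split 4121 to 4786 and 14405 to 22671. In the main setting the called regions of like level split 1396 to 1495. Between progenitor and mature luminal nuclei 48 members (27.4%) were called, 12 higher in progenitor and 36 higher in mature luminal nuclei, against 40.8% and 24.0%. Without the TMM factor that split was 19 to 36, and 11568 to 11301 in all regions called. In the main setting the called regions of like level split 1496 to 827. In all, 102 members were called in none of the 3 contrasts and 73 (41.7%) in at least 1, against 44.0% of the regions of like adult level. At these levels the members were called about as often as other regions. The median member difference was -0.15, -0.34 and -0.25 on the log2 scale in the 3 contrasts, in the order given, and the median of all regions tested was -0.27, -0.40 and -0.06. Relative to all regions the member median lay towards basal in the first contrast and towards mature luminal in the third. With a mean of at least 30 reads the first contrast had medians of 0.13 in members and -0.07 in all regions. With a mean of at least 1 read these were -0.46 and -0.42, so the lean then turned towards progenitors.

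Of the differences given here, the largest was at a member that leaned to mature luminal nuclei. The member in Il18rap (chr1:40542072-40543071), the accessory chain of the interleukin-18 receptor, read 15.8 and 11.8 CPM in basal, 39.1 and 26.8 CPM in progenitor and 118 and 101 CPM in mature luminal nuclei. Basal minus mature luminal was -3.04 ± 0.32 (SE) on the log2 scale. The member in Prxl2a (chr14:40995800-40996799), a peroxiredoxin-like gene, read 54.4 and 66.6 CPM in mature luminal nuclei and 6.51 to 17.1 CPM in the other 4 adult columns. Progenitor minus mature luminal was -2.45 ± 0.37 there, -2.34 ± 0.34 at the member in Ampd3 (chr7:110784632-110785631), an AMP deaminase gene, and -2.17 ± 0.39 at the member in Zfp827 (chr8:79114580-79115579). The member nearest Haao (chr17:83935101-83936100) was low in basal nuclei, at 5.75 and 14.2 CPM, and read 35.1 to 48.5 CPM in both luminal lineages.

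Members that leaned to progenitors included one in Hivep3 (chr4:119966146-119967145), a zinc-finger factor gene, one in Parva (chr7:112566146-112567145), which encodes an actin-binding partner of integrin-linked kinase, and one in St3gal1 (chr15:67138459-67139458), a sialyltransferase gene. The Hivep3 member read 43.1 and 37.1 CPM in basal, 68.1 and 84.4 CPM in progenitor and 13.8 and 16.0 CPM in mature luminal nuclei, and progenitor minus mature luminal was 2.30 ± 0.30. The Parva member read 69.2 and 59.5 CPM in progenitors and 7.39 to 27.3 CPM in the other adult columns. The St3gal1 member read 78.2 and 62.9 CPM in progenitors against 28.8 and 7.43 CPM in basal nuclei, and basal minus progenitor was -2.24 ± 0.37.

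Members called higher in basal nuclei were 8 of 28 against progenitor and 6 of 44 against mature luminal nuclei. Called regions of like adult level split 603 to 1296 and 1396 to 1495 there, and the member split against progenitors moved with the filter on reads. The member 674 bases from Btbd19 (chr4:117117546-117118545) read 43.1 and 39.0 CPM in basal nuclei and 6.34 to 14.03 CPM in the 4 luminal columns, and basal minus progenitor was 2.06 ± 0.47. The member nearest Rcn1 (chr2:105408155-105409154), a calcium-binding protein gene of the endoplasmic reticulum, read 93.4 and 58.2 CPM in basal and 20.1 to 27.8 CPM in the luminal columns. The member in Ell (chr8:70561891-70562890), a transcription elongation factor gene, read 56.1 and 38.4 CPM in basal, 14.53 and 14.1 CPM in progenitor and 35.7 and 35.2 CPM in mature luminal nuclei, so that progenitors stood apart. The member near Ntn4 (chr10:93748931-93749930), a netrin of basement membranes, read 20.1 and 35.9 CPM in basal against 8.02 and 12.2 CPM in progenitor nuclei.

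**Figure D4:**
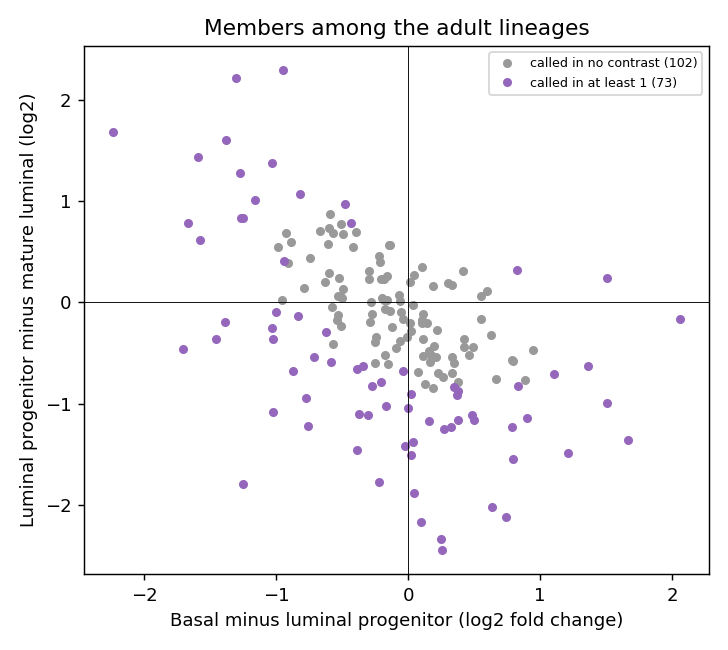
Each point is 1 of the 175 members, by its log2 fold change of basal minus luminal progenitor (horizontal) and of luminal progenitor minus mature luminal (vertical). The 73 members called in at least 1 contrast surround the 102 called in none, and more of the called points lie below 0 than above it on the vertical axis.

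The position of the members in the genome was compared with that of other distal regions, without a test. Of the 175, 107 (61.1%) lay within the span of a coding gene, against 54.1% of all distal regions and 60.2% of equally open regions. The median distance from a member to the nearest deposited promoter region was 31791 bases, against 42166 bases for all distal regions, 73354 bases for regions open in fetal groups only and 23116 bases for equally open regions. Within 5000 bases of a promoter region lay 15 members (8.57%), against 8.01% of all distal regions, and 67 members (38.3%) lay over 50000 bases away, against 45.3%. These are not distances to starts, as not every start has a deposited promoter region. The member over the Ptpre start lay 67809 bases from one, and 2573 distal regions hold the whole 250 bases before a listed start. No member lay on chromosome X, which holds 2851 of the distal regions. The 175 members had 161 different nearest genes, and 14 neighbouring pairs of members lay within 100000 bases of each other.

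A nearest gene was shared by at least 2 members in 11 cases and by 3 members in 3 cases. These 3 were St3gal1, Zbtb7c and Smad3, which are nearest to 51, 59 and 46 distal regions. Smad3 is a transducer of TGF-beta signals, and its 3 members (chr9:63698315-63699314, chr9:63732271-63733270 and chr9:63743802-63744801) all lie within the gene. The first read 40.3 and 27.8 CPM in basal, 62.6 and 45.8 CPM in progenitor and 49.5 and 18.9 CPM in mature luminal nuclei, against 6.02 to 9.99 CPM in fetal columns. The other two, in the order given, reached 26.0 and 25.7 CPM at most, and 3.63 and 3.38 CPM at most in fetal columns.

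The St3gal1 members differed in the lineage that they favoured. Those at chr15:67116372-67117371 and chr15:67129296-67130295 were highest in mature luminal nuclei, at 65.7 and 59.8 CPM and at 31.2 and 32.2 CPM, while the one at chr15:67138459-67139458, described above, was highest in progenitors. Afap1l2, which encodes an adaptor protein of Src signalling, held 2 members (chr19:56934711-56935710 and chr19:56939457-56940456), read at 53.1 to 84.0 CPM and at 23.0 to 53.2 CPM in adult columns. Actn1, an alpha-actinin gene, held 2 members, 1 of which (chr12:80233827-80234826) overlapped between stages because it read 2.88 CPM in adult basal replicate 1 and 27.2 CPM in replicate 2.

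Of 11 gene lists, 10 for pathways or receptors and 1 for fetal and oncofetal genes, 6 held a nearest gene of no member: interferon and antigen presentation, Hippo, lipid and fat-cell regulators, cell-cycle brakes, adhesion and integrins, and fetal and oncofetal genes. These 6 lists hold 16 to 24 genes each and leave others out, so a count of 0 covers the listed genes alone. Outside them, and named after their values were seen, members lay 11694 bases from the integrin gene Itga1, in Gbp5, an interferon-induced gene, and in Adipor2, an adiponectin receptor gene. Those 6 lists are nearest to 146, 265, 321, 259, 444 and 636 distal regions, so at the members' overall share of 0.120% few could be looked for. TGF-beta and BMP genes were nearest to 4 members (2.29%) and to 0.439% of distal regions, through Smad3 with 3 and Tgfb2 with 1. NF-kB and inflammation genes were nearest to 2 members (1.14%) and to 0.157% of distal regions. These counts are small and draw on few genes.

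The members of the inflammation list lie at Tnfaip3, which encodes the NF-kB inhibitor A20, and 174592 bases from Nfkbiz, which encodes an atypical I-kappa-B protein. The Tnfaip3 member (chr10:19008818-19009817) read 20.4 to 35.7 CPM in adult and 0 to 5.19 CPM in fetal columns, and the Nfkbiz member (chr16:55635784-55636783) read 23.0 to 52.1 CPM and 0 to 6.25 CPM. The glucocorticoid and circadian list had 2 members (1.14%, against 0.257% of distal regions), both nearest Sgk1, and the second of these (chr10:21783249-21784248) read 20.1 to 44.2 CPM in adult and 3.01 to 6.25 CPM in fetal columns. The AP-1 list had 1 member (0.571%, against 0.185%), 48071 bases from Jun (chr4:95100293-95101292), at 10.1 to 16.6 CPM in adult and 0 to 3.28 CPM in fetal columns. The receptor list had 1 member (0.571%, against 0.386%), in Vdr, the vitamin D receptor gene (chr15:97881877-97882876), which was highest in progenitors at 28.6 and 42.4 CPM. The Tgfb2 member (chr1:186460926-186461925), 160862 bases from this TGF-beta ligand gene, was highest in basal nuclei at 21.6 and 34.0 CPM.

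The promoters of the nearest genes are regions that the rule did not read. Of the 161 genes, 90 had a deposited promoter region at a listed start. That list of starts is incomplete, so a gene left out here need not lack a promoter region. In edgeR's quasi-likelihood test over all listed nuclei, 18 of these 90 promoters (20.0%) were more accessible in adult libraries and 2 (2.22%) in fetal libraries, against 11.0% and 10.5% of all 18570 promoters tested. With DESeq2 10 of the 90 were called higher in adult libraries, against 1293 of all 18570 promoters. The median difference with edgeR was 0.11 on the log2 scale in the 90 and 0.00 in all promoters. With 1 library left out at a time, the median of the nearest-gene promoters lay between 0.09 and 0.13. That of all promoters then lay between -0.005 and 0.017. These sums run over all nuclei of a library, so the mix of lineages and the accessibility per nucleus cannot be told apart.

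The largest promoter difference was at Scnn1b, a subunit gene of the epithelial sodium channel. Its promoter read 11.0 and 15.5 CPM of all promoter reads in fetal and 53.3 and 60.7 CPM in adult libraries, a difference of 2.06 ± 0.25 (SE; edgeR adjusted p = 1.5e-09). The Btbd19 promoter read 31.0 and 21.8 CPM in fetal and 81.8 and 91.6 CPM in adult libraries, a difference of 1.82 ± 0.20 (edgeR adjusted p = 1.56e-10). The Ampd3 promoter read 33.0 and 31.9 CPM against 69.9 and 88.1 CPM, a difference of 1.32 ± 0.20 (edgeR adjusted p = 3.09e-07). At all 3 the adult libraries lay above both fetal ones.

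Smaller differences in the same direction were called at Smad3 (0.46 ± 0.14), Inhba (0.69 ± 0.15), which encodes a subunit of activin, Cd47 (0.53 ± 0.12), a signal against phagocytosis, Bcl2l1 (0.57 ± 0.16), an inhibitor of apoptosis, and Irx3 (0.31 ± 0.11), a homeobox gene. The 2 promoters higher in fetal libraries were those of Dlgap1 (-1.23 ± 0.19), a scaffold gene of synapses, and Slc46a1 (-0.82 ± 0.21), a folate transporter gene. The Dlgap1 promoter (chr17:69968669-69969668) read 84.6 and 81.5 CPM in fetal and 31.3 and 37.7 CPM in adult libraries. The member in Dlgap1 (chr17:70741253-70742252) was higher in the adult groups. The deposited promoter region closest to this member is another one, 111232 bases from it.

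**Figure D5:**
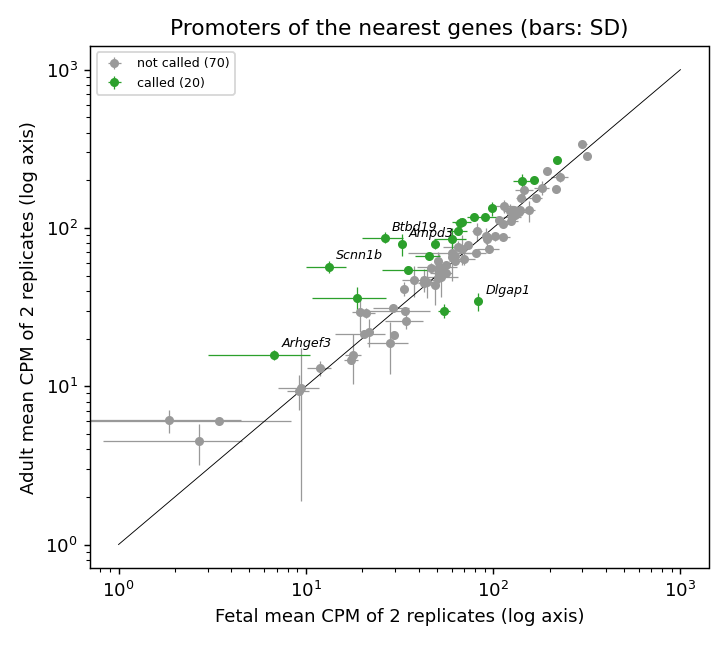
Mean CPM of promoter reads in adult against fetal libraries (log axes, bars are the SD of 2 replicates) for the 90 promoters of nearest genes, with the line of equal values. The 20 called promoters are green: 18 lie above the line and 2, among them Dlgap1, below it.

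Co-accessibility, the authors' deposited Cicero score for pairs of regions that tend to be open in the same nuclei, tied many members to other regions. At a score of at least 0.25, 107 members (61.1%) had a partner, against 14.6% of all distal regions, 31.1% of distal regions with the 3 adult groups at 10 CPM or more, 47.6% of regions open in fetal groups only and 6.07% of equally open regions. The deposited table gives 1 score per pair and none by stage, and the part of the stage difference in these shares was not tested. A promoter region was among the partners of 23 members (13.1%), against 2.21% of all distal regions and 7.72% of those of like adult level. At a score of at least 0.1 this was 89 members (50.9%), against 11.96% and 41.3%.

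Ties to the promoter of the nearest gene could be looked for only where that gene had a listed promoter region, as 90 of the 161 did. The list of starts behind this is incomplete, and several promoter regions tied to members bore no gene name, so such ties can be missed. At 0.25 such a tie was found for 3 members, those of Ampd3 (0.417), Scnn1b (0.371) and Cd47 (0.293). These 3 promoters are among the 18 of 90 (20.0%, against 11.0% of all promoters) called higher in adult libraries, and both measures come from the same libraries. The Scnn1b member (chr7:121836425-121837424), 27614 bases from the gene, read 57.2 and 30.5 CPM in mature luminal, 19.04 and 19.5 CPM in progenitor and 8.63 and 33.4 CPM in basal nuclei. The Cd47 member (chr16:49938493-49939492) read 66.6 and 85.3 CPM in progenitors and 29.7 to 40.3 CPM in the other adult columns, against 6.87 to 10.5 CPM in fetal columns. Members were tied to each other in 8 pairs, 6 of them with the same nearest gene: Syne3 (0.576), Abhd2 (0.467), Afap1l2 (0.430), St3gal1 (0.402), Sgk1 (0.345) and Zbtb7c (0.295). The other 2 pairs joined members nearest Usp3 and Lactb (0.397) and nearest Cc2d2a and Fbxl5 (0.372).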

How the data were processed

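Single-nucleus ATAC-seq reads of 4 libraries were used, 2 fetal and 2 adult. Per the submitters' processing notes the reads were handled with Bowtie2, MACS2 and bedtools on mm10; versions and settings are not given in the sources used here. The authors deposited read positions with barcodes, lists of kept nuclei, region lists and a table with a cluster and a count of reads for each nucleus. The authors' chromVAR score and Cicero score were used as deposited. A gene score table, whose 7846 columns name no sample, was not used. No doublet caller was run, since the deposited clusters, of nuclei with at least 2000 reads, were taken as they stood, and 20 nuclei shared a sorting well.

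A read was counted in each region that it overlapped by at least 1 base. Members and lists were chosen with earlier results of these data known. Counts were tested by edgeR's quasi-likelihood method (version 4.0.16; R 4.3.3, limma 3.58.1) with TMM and Benjamini-Hochberg adjustment over all tested regions. Regions needed a mean of 10 reads per library or sum, or 5 in cluster 6, and an adjusted p under 0.05 was called. The SE of a log2 fold change is its size over the square root of the F statistic. Replicate numbers were not blocked in the main stage test, as no label ties a number to a litter or a day. DESeq2 1.42.0, other filters, no TMM factor, the block and leaving out each library were alternatives. Labels name biological replicates only, so p-values measure the spread between these libraries. The edgeR step was also run on simulated counts, simpler than these data, as a check of the code only, which gives no measure of the calls made here. Counting, shares and plots used Python 3.11.15 with scipy 1.17.1, pandas 2.3.3, numpy 2.4.6 and matplotlib 3.10.9.

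Named members were the 6 with the highest value in their lowest adult group, the 6 of highest ratio, 3 on each side of both limits, up to 3 per gene list, those of the 8 genes with most members, and the 3 with the largest called difference each way per lineage contrast. The nearest gene is the coding gene of RefSeq whose span holds the region, with the closer end where there were several, or else the nearest span. Marker levels are CPM of all reads over the gene with 2000 bases on either side. Motifs were searched only in the RefSeq sequences before starts.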

Additional observations from a re-analysis of the deposited data

How the results depend on the processing

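The number of members, 175, became 294 at 5 CPM, 68 at 20 CPM, 500 at 2 times, 35 at 5 times and 96 with 2 CPM added. It was 42 with CPM taken over reads of the whole genome, where the same limit of 10 CPM asks for more reads. Leaving out a library gave 158 to 217 members, of which 109 to 146 were among the 175. Distal regions called between the stages fell from 43423 to 24873 with DESeq2 and to 24775 with a mean of at least 30 reads, where fewer regions were tested, and lay between 30355 and 42172 with a library left out. Promoter calls went from 3992 to 2622 with DESeq2 and to between 2514 and 3057 without a library. Promoters of nearest genes called higher in adult libraries went from 18 to 10 with DESeq2 and to between 10 and 15 without a library. Of all promoters, those called higher in adult libraries went from 2038 to 1293 and to between 1324 and 1488. The cause was not tested where none is named.

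With the replicate block, 40678 distal regions, 4294 promoters (2218 adult higher), 19 promoters of nearest genes (adult higher) and 0 regions in cluster 6 were called. The replicate numbers were only a number: the deviations of equally numbered libraries from their stage mean correlated at 0.06 over 28608 distal regions. In cluster 6, 0 to 1 regions were called without a library, and the 1 appeared without adult replicate 1 and was no member. With a mean of at least 30 reads, lineage calls were 5371 (basal against progenitor), 8907 (basal against mature luminal) and 7560 (progenitor against mature luminal), where 15865 in place of 54351 regions were tested. The split of the member calls then was 14 to 15, 12 to 30 and 16 to 44, and with a mean of at least 1 read 4 to 26, 3 to 49 and 8 to 25. All regions called split 2387 to 2984, 4121 to 4786 and 3781 to 3779 with a mean of at least 30 reads. With a mean of at least 1 read they split 5609 to 10184, 14405 to 22671 and 12283 to 13752. Leaving out the TMM factor moved the median of all regions from -0.40 to -0.26 on the log2 scale in basal against mature luminal, and by under 0.1 in the other lineage contrasts. A lineage test without a library was not run, since it leaves no residual degrees of freedom. Reading each read at its midpoint gave member shares of 0.231% (fetal) and 0.469% (adult) in cluster 6 and 0.0983% and 0.537% in unlisted barcodes. The shares without a library, chosen after seeing the data, ranged from 0.227% to 0.229% and from 0.454% to 0.480% in cluster 6 and from 0.100% to 0.101% and from 0.493% to 0.561% in unlisted barcodes. At a co-accessibility of 0.1, 89 in place of 23 members were tied to a promoter. Over all results and alternatives, 83 values stayed within 1.5 times (counts) or 1 SD (shares) of the reported value and 19 did not. The 83 is no measure of robustness. With 2 replicates per stage a share without a library cannot fall outside 1 SD, and most cluster 6 alternatives set a count of 0 against 0. The planned motif shares over whole regions and their alternatives were not run, because no genome sequence was used here.

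With 2 libraries per stage and few reads in the adult basal and fetal basal-like groups of replicate 1, single low values carry wide counting error, and members near the limits are the least certain.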
